A study of Mus musculus with 12 samples.

Results

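The comparison of 6 tumor libraries, 3 from mice given an anti-HER2/CD3 antibody and 3 from mice given vehicle, is described here across 15454 genes, out of 12 libraries in the series. The members were chosen by title: each library titled as a Fo5 tumor with the antibody or with vehicle belongs to it, and the other 6 libraries are livers. Fo5 is a mammary tumor line that arose in Founder #5 of mice carrying a HER2 transgene under the MMTV promoter, which is active in mammary epithelium. A fragment of it was transplanted into the mammary fat pad of female FVB/NJ mice. Treatment began once tumor volumes averaged 350 to 500 mm3. The treated mice received 5 mg/kg of anti-HER2(4D5-2C11)/CD3, a T cell-dependent bispecific antibody (TDB), once into the tail vein, and the control mice an equal volume of the histidine acetate, sucrose and Tween-20 buffer. Tissue was taken 24 h later, dissociated, and its total RNA sequenced on an Illumina HiSeq instrument. All 6 tumors thus carry the transgene and derive from 1 founder's tumor, which limits how far they stand for other tumors. The hosts are immunocompetent mice of 1 strain, and their age is not given in the sources used here. The design text names 3 mice per treatment, so each tumor library is 1 mouse and p-values measure the spread between mice. Within 24 h of the antibody, interferon-induced, antigen-presentation, T cell and cytotoxic genes were higher in the tumors, and cell cycle genes were lower.

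A bispecific antibody of this kind holds a HER2-bearing tumor cell and a T cell together through CD3, the signaling part of the T cell receptor complex, whatever antigen the receptor itself sees. Engaged T cells release cytotoxic granules and cytokines, among them interferon-gamma. Interferon-gamma binds its receptor on neighbouring cells, signals through JAK kinases, and in part through the factor IRF1 raises genes for antigen presentation, chemokines and immune GTPases.

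Tumor libraries held 20796764 to 29396324 counts over 52636 gene identifiers. The first principal component took 79% of the variance of the 6 libraries and separated treated from vehicle tumors. Replicates of a group differed by 13.5 to 36.2 times counting noise (chi-square per degree of freedom), so none looked like a duplicate. Levels below are CPM, a library's counts divided by its size on a common scale, after scaling by edgeR's trimmed-mean factors (TMM). They do not account for gene length, so they compare libraries and not genes. Changes are log2 fold changes of TDB against vehicle with the standard error (SE) and the p-value of edgeR's quasi-likelihood test, adjusted by Benjamini-Hochberg over all genes tested, and a gene "rose" or "fell" where that value is under 0.05. Of the 15454 genes tested, 2437 rose (15.8%) and 2019 fell (13.1%), and the median log2 fold change over all of them was -0.02. At least 2-fold rises were found for 1122 genes (7.26%) and 2-fold falls for 444 (2.87%). Of the genes called, 54.7% had risen, a share of 41% with upper-quartile scaling, which shifted the median of all genes to -0.09. Without TDB 2 only 1145 genes fell. Liver libraries varied more than tumor libraries, and their biological coefficient of variation, shared by all genes, was 32.3% against 13% in tumor. When all 12 libraries shared 1 estimate of spread, 1068 genes rose and 627 fell, and genes named below that lost their call in that fit are pointed out. Ccnd1 and Rb1 were not checked in it.

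Interferon-gamma and its signaling genes rose. Ifng itself, the cytokine gene (GRCm38 chr10:118441046-118445892), had no count in any vehicle tumor and 6.36, 8.71 and 8.01 CPM in the 3 treated tumors. This was an at least 173-fold rise against a floor of 3 counts over the vehicle group (adjusted p = 1.3e-05), a floor that, like the counting intervals below, covers counting error only. Irf1, a transcription factor induced by interferon-gamma, went from 35.8, 36.2 and 34.8 CPM in vehicle tumors to 873, 1020 and 867 CPM (log2 fold change 4.69, SE 0.1, adjusted p = 8.5e-09). The 2 groups were far apart and the spread inside each was small. Batf2, an interferon-induced leucine zipper factor, rose by 8.05 (SE 0.17), and the feedback inhibitor Socs1 by 7.06 (SE 0.41) on the log2 scale. The kinase gene Jak2 rose by 1.31 and the factor gene Irf8 by 3.23. The receptor gene Ifngr1 stood at 44.5, 47.1 and 48 CPM in vehicle tumors and 46.4, 48.3 and 46.6 CPM in treated tumors, and did not pass (log2 fold change 0.02, adjusted p = 0.88). In all, 9 of 12 genes of interferon-gamma signaling rose and 0 fell, with a median of 2.98.

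Promoters of 2 genes of this response, the GTPase genes Gbp2 and Igtp, from RefSeq on GRCm38.p6, are printed because they hold a word that IRF factors are known to bind. Each runs 5′ to 3′ from 250 bases before to 50 after the start. Capitals mark the IRF word GAAANNGAAA, searched on both strands. The windows are chr3:142620413-142620712 (+) for Gbp2 and chr11:58199306-58199605 (+) for Igtp.
Gbp2: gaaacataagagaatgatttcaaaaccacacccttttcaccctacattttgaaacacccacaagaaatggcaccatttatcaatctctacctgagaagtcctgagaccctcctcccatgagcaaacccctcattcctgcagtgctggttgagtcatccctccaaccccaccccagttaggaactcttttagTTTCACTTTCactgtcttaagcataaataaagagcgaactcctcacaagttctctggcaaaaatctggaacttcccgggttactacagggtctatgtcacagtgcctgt
Igtp: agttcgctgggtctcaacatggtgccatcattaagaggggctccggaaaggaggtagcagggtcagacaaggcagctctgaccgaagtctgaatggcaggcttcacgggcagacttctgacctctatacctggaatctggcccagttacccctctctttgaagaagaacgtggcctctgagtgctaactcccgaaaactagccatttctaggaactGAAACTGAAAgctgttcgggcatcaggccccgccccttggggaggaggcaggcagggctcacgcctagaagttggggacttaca
With the start as base 1 and the base before it as -1, the Gbp2 window holds the IRF word, read on the other strand, at -59 to -50. The Igtp window holds it at -34 to -25. Among 9 of the 17 listed GTPases with a RefSeq promoter, 9 held the IRF word. Of the 27025 RefSeq promoters, 3.49% held it, and of those of the genes tested 3.19%. For the 774 genes with a promoter that rose at least 2-fold, the share was 13.3%, and for the 137 that rose at least 16-fold it was 26.3%. A match is a description of letters, and no binding was measured here.

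The interferon-induced GTPases, which act on vacuoles that hold pathogens, had the highest median of the pathway lists. All 17 tested members rose, and the list's median was 8.36 on the log2 scale, or 7.97 with Gbp6, a gene without a vehicle count, at its bound. Gbp2 went from 18.2, 10.7 and 18.4 CPM to 3320, 3490 and 3350 CPM (log2 fold change 7.75, SE 0.24, adjusted p = 2.4e-07). Igtp (Irgm3) went from 21.2, 15.4 and 21.1 CPM to 3520, 3770 and 3150 CPM (log2 fold change 7.5, SE 0.18). No treated library came near the vehicle range for either gene. Iigp1 rose from 4.56 to 16.1 CPM to 5950 to 6490 CPM. Gbp4 went from 1.14, 0.542 and 0.75 CPM to 1210, 1450 and 1170 CPM (log2 fold change 10.61, SE 0.22). Summed over the list, the level was 113 to 167 CPM in vehicle tumors and 23400 to 26800 CPM in treated tumors. TDB 2 was the highest treated library for 16 of the 17 and vehicle 2 the lowest vehicle library for 15. Several Gbp and Tgtp genes are near-identical copies, so how reads were divided among them is uncertain.

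**Figure D1:**
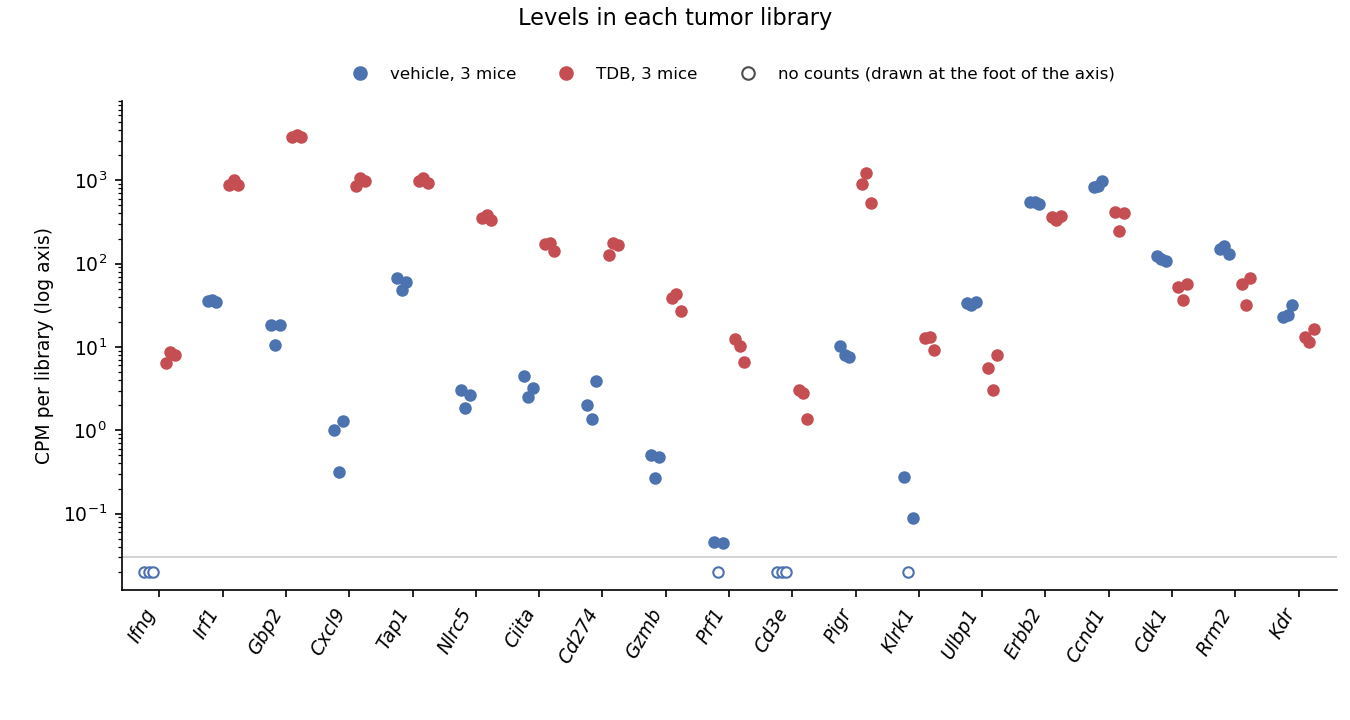
Level of 19 genes in each tumor library, in CPM on a log axis. Each point is 1 mouse, blue for vehicle and red for TDB, and an open point at the foot has no counts. CPM are not per length, so genes are not compared with each other. Irf1 sits between 34.8 and 36.2 CPM in vehicle tumors and 867 and 1020 CPM in treated tumors, whereas Erbb2, Ulbp1, Ccnd1, Cdk1, Rrm2 and Kdr are lower with TDB.

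Genes best known as type I interferon targets rose as well. All 29 of 29 rose at least 2-fold, with a median of 3.55. Oasl2, a member of the oligoadenylate synthetase-like family, rose by 5.55 (SE 0.34), and Oas2 by 5.33 (SE 0.13), from 2.15, 1.99 and 2.03 CPM to 71.8, 91.1 and 85.8 CPM. Isg15, a ubiquitin-like modifier, went from 5.54, 2.75 and 5.51 CPM to 55, 67.6 and 59.8 CPM (log2 fold change 3.72, SE 0.24). Parp14 rose by 4.65 (SE 0.16). In this list 52.4% of the 21 genes with a RefSeq promoter held the IRF word.

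Antigen presentation genes rose in both classes. For MHC class I, 20 of 21 rose and 0 fell, with a median of 3.05. Nlrc5, the class I transactivator, went from 3.07, 1.85 and 2.65 CPM to 356, 386 and 335 CPM (log2 fold change 7.15, SE 0.16, adjusted p = 1.3e-08). B2m, the light chain, rose from 283, 167 and 251 CPM to 2950, 3640 and 2370 CPM (log2 fold change 3.68, SE 0.25). The peptide transporter gene Tap1 rose by 4.07 (SE 0.14), the immunoproteasome genes Psmb9 by 4.67 and Psmb8 by 4.15, and the heavy chain gene H2-K1 by 2.54. H2 genes resemble one another closely, and their reads may have been divided unevenly. TDB 3 was the lowest treated library for 21 of the 21 members.

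For MHC class II, whose genes are known from professional antigen-presenting cells and are inducible by interferon-gamma elsewhere, 12 of 12 tested members rose, with a median of 3.77. Ciita, the class II transactivator, went from 4.53, 2.48 and 3.18 CPM to 171, 175 and 141 CPM (log2 fold change 5.58, SE 0.2). Cd74, the invariant chain, went from 102, 37 and 78.9 CPM to 1360, 1200 and 939 CPM (log2 fold change 4.01, SE 0.42). The groups did not overlap, and vehicle 2 was lowest for both. Markers of presenting cells also rose. Of 12 dendritic cell markers, 9 rose, and their summed level was 51.3 to 83.5 CPM in vehicle and 191 to 198 CPM in treated tumors. A single marker, Ly75, whose levels are given below, made up much of the treated sum. The part of presenting cells in the class II values was not tested. In bulk RNA, more cells of a type and more RNA per cell cannot be told apart, which holds for every cell marker here.

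Many T cell genes, at or near 0 in vehicle tumors, rose after the antibody that binds CD3. Of 18 T cell markers, 15 rose and 1 fell, with a median of 3.92, and their summed level was 19.5 to 26.3 CPM in vehicle and 39.6 to 53.5 CPM in treated tumors. Cd3e, the chain that carries the CD3 epsilon signaling part, had no vehicle count and 3.06, 2.8 and 1.37 CPM with TDB, an at least 54.6-fold rise (adjusted p = 0.00052). Cd3d had 3 counts in all vehicle tumors and 109 in treated tumors, a ratio of 34.8 (95% exact counting interval 11.6 to 171). These levels are low, and TDB 3 had the least of the treated libraries for 14 of the 18 markers. Cd8a went from 0.137, 0.0903 and 0 CPM to 3.91, 2.94 and 1.95 CPM (log2 fold change 5.19, SE 0.56). Cd4 had 2.89, 1.31 and 3.09 CPM against 3.21, 3.59 and 3.47 CPM and did not pass (adjusted p = 0.25). Foxp3, the regulatory T cell factor, had no vehicle count and 69 counts with TDB, at least 22-fold more. Thy1, which stromal cells also carry, was the member that fell, by 0.61 on the log2 scale (adjusted p = 0.041). That call was lost without TDB 1 (0.11), TDB 2 (0.054), TDB 3 (0.069), vehicle 1 (0.1) or vehicle 3 (0.098), and in the fit of 12 libraries (0.098).

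Cytotoxic effector genes rose, 13 of 16 tested, and 0 fell, with a median of 2.9. Gzmb, a granule protease, went from 0.504, 0.271 and 0.485 CPM to 38.8, 43.6 and 27.2 CPM (log2 fold change 6.43, SE 0.27, adjusted p = 1.6e-06). Prf1, the pore-forming perforin, had 2 vehicle counts and 684 treated counts, a ratio of 328 (interval 90.4 to 2710). Both were separated between groups without overlap. Gzma rose by 6.22 (SE 0.62), from 0.0916 to 0.176 CPM to 14.5, 12.3 and 4.49 CPM, with TDB 3 well below the other treated tumors. Tnfsf10, the death ligand TRAIL, rose by 4.58 (SE 0.28) and Fasl by 3.45 (SE 0.53). Natural killer (NK) cells use the same granule genes, and of 7 NK markers tested 6 rose and 0 fell. That list includes Gzma itself and Klrk1, which CD8 T cells also use, so it is not independent of the granule genes. The NK list summed to 6.96 to 10.5 CPM in vehicle and 27.1 to 46 CPM in treated tumors, and which cells made the granule transcripts was not tested. Ncr1, the receptor NKp46, went from 0.0916, 0.135 and 0.176 CPM to 4.38, 2.44 and 2.49 CPM (log2 fold change 4.46, SE 0.42).

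The activating receptor NKG2D and one of its ligands moved in opposite directions. Klrk1, the receptor gene used by NK and CD8 T cells, went from 0.275, 0 and 0.0882 CPM to 12.8, 13.2 and 9.23 CPM (log2 fold change 6.55, SE 0.48). Ulbp1, a ligand gene of stressed and transformed cells (chr10:7440362-7473638), fell from 33.5, 32.1 and 34.7 CPM to 5.56, 3.01 and 7.91 CPM (log2 fold change -2.62, SE 0.31, adjusted p = 0.0012). Neither gene overlapped between groups. The pair was put side by side after its values were seen. Other ligand genes looked at with it, H60b, H60c, Raet1d and Raet1e, were too low to test.

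Activation genes of T cells rose, 17 of 21 tested, and 1 fell. Il2ra, the inducible IL-2 receptor chain, had 2 counts in vehicle and 773 in treated tumors, a ratio of 370 (interval 102 to 3060). Tbx21, the factor T-bet, had 1 and 199 counts, a ratio of 191 (interval 33.8 to 7570). Xcl1, a chemokine of activated lymphocytes, went from 0.183, 0.135 and 0.0441 CPM to 5.56, 5.88 and 4.64 CPM (log2 fold change 5.42, SE 0.35). Tnfrsf9, a costimulatory receptor, rose by 2.86 and Il12rb1, an IL-12 receptor chain, by 5.14. Nr4a1, an early gene of receptor signaling, fell by 0.34 on the log2 scale (adjusted p = 0.033), a call lost without TDB 2 (0.11), TDB 3 (0.11), vehicle 1 (0.089) or vehicle 2 (0.1), and in the fit of 12 libraries (0.57). Il2 was too low to test, with 9 vehicle and 6 treated counts.

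Checkpoint genes, which restrain T cells, rose in 12 of 15 tested and fell in 0. The ligand gene Cd274 (PD-L1) went from 2.02, 1.35 and 3.93 CPM to 126, 177 and 166 CPM (log2 fold change 6, SE 0.35, adjusted p = 0.00011). Pdcd1lg2 (PD-L2) had no vehicle count and 16.6, 16.5 and 7.96 CPM with TDB, at least 311-fold more. Both ligands were thus clear of the vehicle range in all 3 treated tumors. The receptor gene Pdcd1 rose by 3.21 (SE 0.48), from 0.229, 0.271 and 0.132 CPM to 2.31, 2.62 and 0.977 CPM. Ctla4 had 2 and 124 counts, a ratio of 59.4 (interval 16.1 to 496). Lag3 rose by 1.55 and Havcr2 (TIM-3) by 1.41. Lgals9, a galectin bound by TIM-3, rose by 3.72 (SE 0.22).

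**Figure D2:**
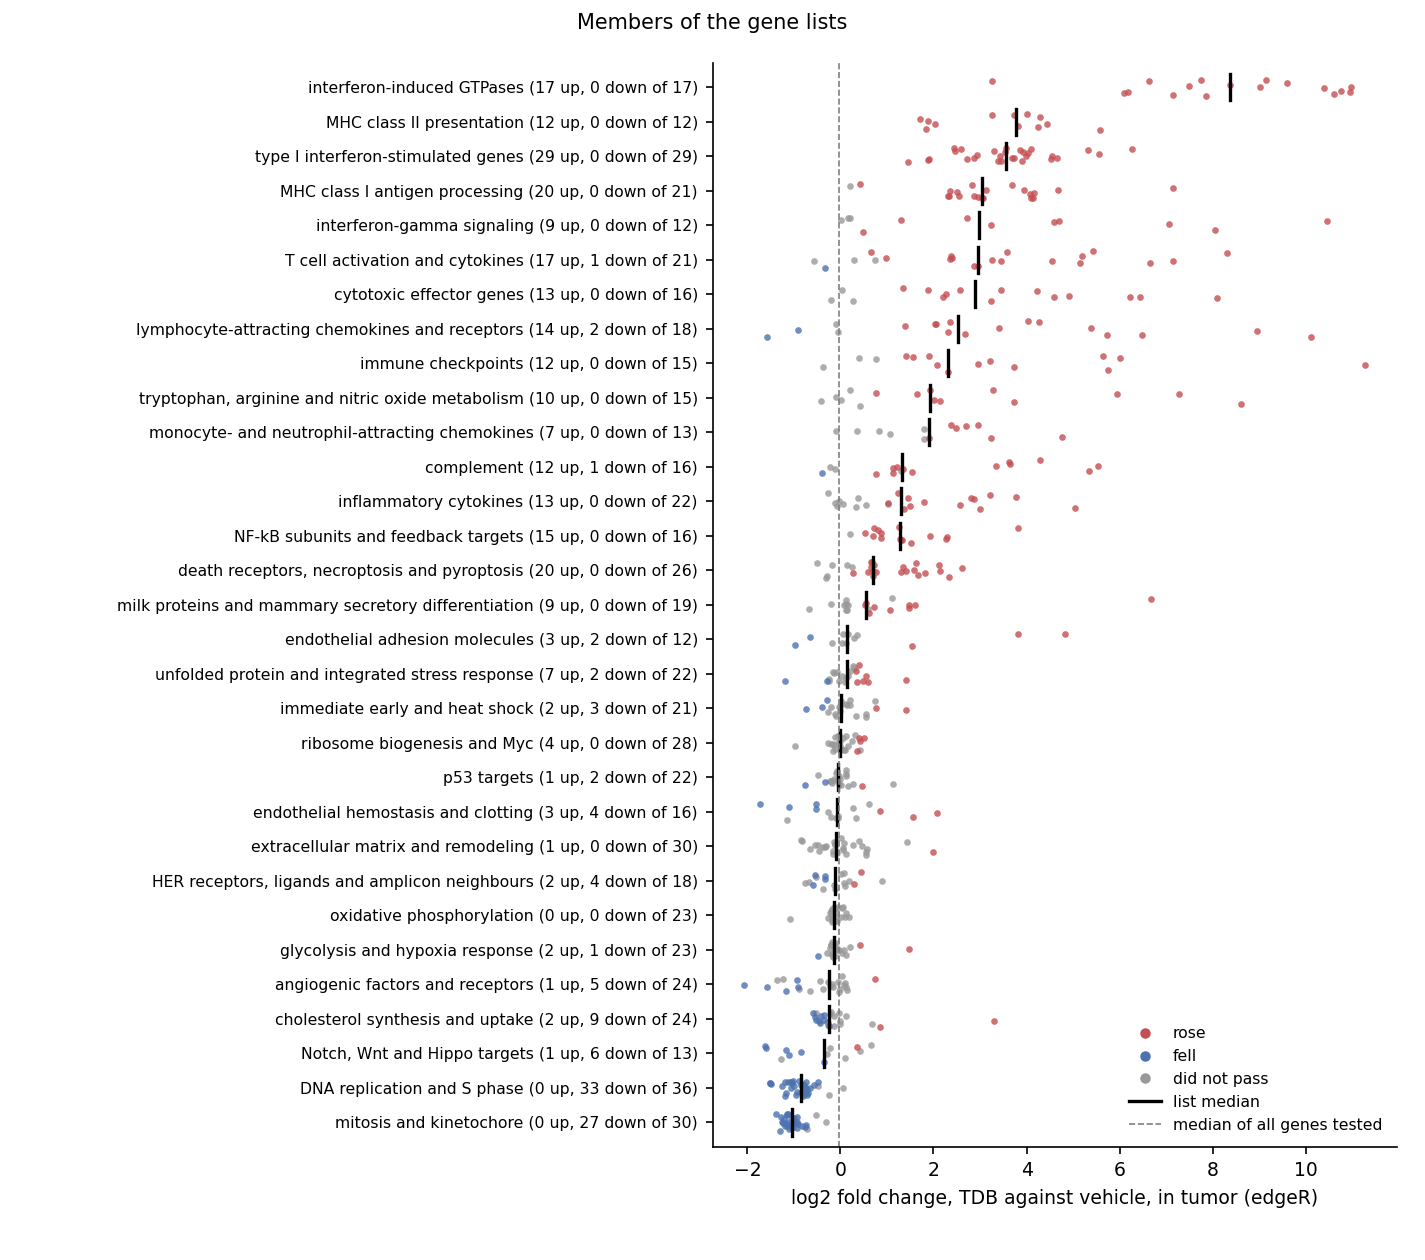
Log2 fold changes in tumor of the members of 31 gene lists. Each point is a gene, red where it rose, blue where it fell and grey where it did not pass; black bars are list medians and the dashed line the median of all genes tested, -0.02. Values of genes without vehicle counts depend on the prior count. The GTPase list has the highest median, 8.36, and mitosis the lowest, -1.05.

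Chemokines for lymphocytes rose, and 2 chemokine receptors fell. Cxcl9, which draws Cxcr3-bearing T cells, went from 1.01, 0.316 and 1.28 CPM to 853, 1060 and 989 CPM (log2 fold change 10.11, SE 0.31, adjusted p = 9.2e-07). Cxcl11 rose by 8.95 (SE 0.19) and Cxcl10 by 6.49 (SE 0.41). Their receptor gene Cxcr3 rose from 0.0916, 0.181 and 0.176 CPM to 1.08, 0.681 and 0.537 CPM (log2 fold change 2.31, SE 0.48). Ccl5 rose by 5.39 (SE 0.23). The list held 14 that rose, 2 that fell and 2 that did not pass, with a median of 2.52. Both members that fell were receptors. Cx3cr1 went from 39.7, 32.2 and 38.6 CPM to 10.9, 10.7 and 15.8 CPM (log2 fold change -1.57, SE 0.16). Cxcr4 went from 184, 208 and 197 CPM to 101, 93 and 118 CPM (log2 fold change -0.92, SE 0.1).

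The chemokines of monocytes and neutrophils gave a less even picture. Of 13 tested, 7 rose and 0 fell, with a median of 1.91, but only 4 rose without TDB 2, without TDB 3 or without vehicle 1. Vehicle 3 was the highest vehicle library for 12 of the 13 and vehicle 2 the lowest for 13. Ccl2 shows this, at 2.34, 2.08 and 10.9 CPM in vehicle and 25.1, 27.7 and 26.8 CPM in treated tumors (log2 fold change 2.37, SE 0.66, adjusted p = 0.049). Its call was lost without TDB 1 (0.1), TDB 2 (0.16), TDB 3 (0.12), vehicle 1 (0.1) or vehicle 2 (0.063), and without the filter on low counts (0.12). Ccl8 rose by 4.76 (SE 0.68) and the monocyte receptor gene Ccr2 by 2.96 (SE 0.18). Cxcl1, a neutrophil chemokine, did not pass, at 5.72, 5.28 and 8.47 CPM against 8.06, 8.32 and 8.45 CPM (adjusted p = 0.2; 0.018 without vehicle 3).

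Among inflammatory cytokines, 13 of 22 rose and 0 fell. Il1b went from 1.37, 0.677 and 2.65 CPM to 10.7, 13.4 and 14 CPM (log2 fold change 3.01, SE 0.4). Il6 rose from 0.0916, 0.0452 and 0.573 CPM to 1.18, 2.04 and 2.1 CPM (log2 fold change 2.87, SE 0.64, adjusted p = 0.012; 0.052 without vehicle 1). Decoys and antagonists rose too, Il18bp, which binds IL-18, by 3.78 (SE 0.12) and the IL-1 receptor antagonist Il1rn by 3.21 (SE 0.38). Genes of the NF-kB pathway rose in 15 of 16, with a median of 1.27, and in 9 with all 12 libraries in the fit. The inhibitor gene Nfkbia rose by 1.33 (SE 0.11) and Tnfaip3 by 1.52 (SE 0.17). Genes that act on tryptophan, arginine and nitric oxide rose in 10 of 15, and 0 fell. Nos2, inducible nitric oxide synthase, went from 1.79, 1.13 and 3.44 CPM to 123, 154 and 117 CPM (log2 fold change 5.94, SE 0.34). Ido1, which degrades tryptophan, had no vehicle count and 147 treated counts, at least 46.9-fold more. Arg1 rose by 2.02 (SE 0.2) and Acod1, which makes itaconate, by 7.28 (SE 0.36).

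Myeloid markers moved unevenly. Of 19 monocyte and macrophage markers, 10 rose and 1 fell, with a median of 0.85 and summed levels of 4540 to 12100 CPM in vehicle and 7780 to 11400 CPM in treated tumors, which overlap. Ly6c2, a marker of inflammatory monocytes, had 1 and 441 counts, a ratio of 422 (interval 75.4 to 16700). Csf1r rose from 39.1, 29 and 40.2 CPM to 77, 73.8 and 79.4 CPM (log2 fold change 1.09, SE 0.12). Adgre1 (F4/80) was at 16.4, 11 and 15.4 CPM against 17.5, 17.8 and 22.5 CPM and did not pass (adjusted p = 0.088; 0.043 without the filter and 0.05 with the replicate block). The scavenger receptor gene Cd163 fell by 1.46 (SE 0.38, adjusted p = 0.019), a call lost without TDB 1 (0.054), TDB 2 (0.083), vehicle 1 (0.051) or vehicle 3 (0.054), and in the fit of 12 libraries (0.05). Clec9a, a marker of cross-presenting dendritic cells, had no vehicle count and at least 36.4-fold more with TDB. Ly75 (DEC-205) went from 3.39, 3.75 and 3.49 CPM to 89.2, 86.2 and 85.2 CPM (log2 fold change 4.61, SE 0.09). S100a8, listed as a neutrophil marker, went from 5.13, 3.39 and 6.4 CPM to 29.6, 61.8 and 23.8 CPM (log2 fold change 2.95, SE 0.47). Complement genes rose in 12 of 16 and fell in 1, with C3 going from 3.3, 5.06 and 9.88 CPM to 302, 319 and 232 CPM (log2 fold change 5.54, SE 0.41). Cd55, a complement inhibitor, was the member that fell (log2 fold change -0.4, adjusted p = 0.006; 0.061 in the fit of 12 libraries).

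**Figure D3:**
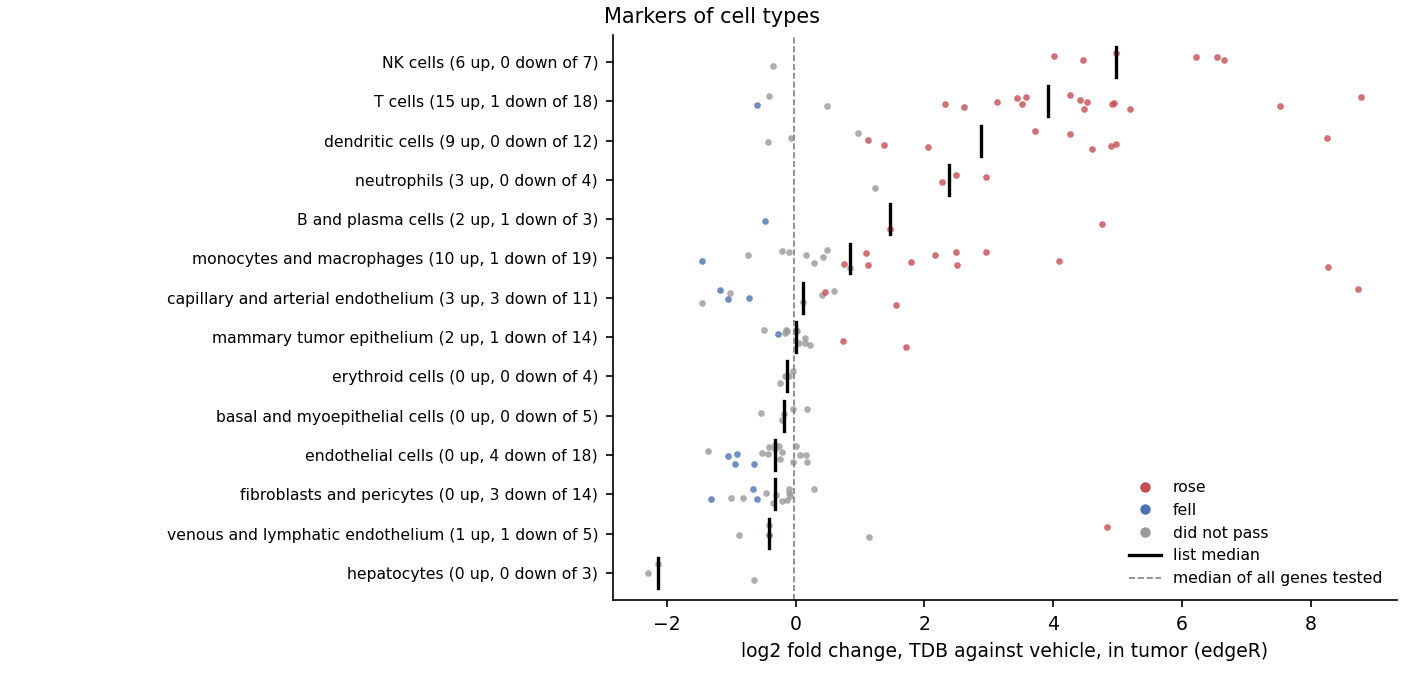
Log2 fold changes in tumor of cell type markers, for lists with at least 3 members tested. Colors, bars and dashed line are as for the pathway lists. NK markers have the highest median, 4.97, and T cell markers follow at 3.92, while mammary epithelial markers sit at 0.01.

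Genes of cell death pathways rose in 20 of 26 and fell in 0, with a median of 0.71. Gsdmd, which forms the pyroptotic pore, went from 2.79, 1.63 and 1.9 CPM to 13, 13.5 and 12 CPM (log2 fold change 2.61, SE 0.2, adjusted p = 2.9e-05). Mlkl, the executor of necroptosis, went from 27.5, 25.3 and 23 CPM to 108, 118 and 105 CPM (log2 fold change 2.13, SE 0.09). The groups were separate for both. The death receptor gene Fas rose by 1.42 (SE 0.22). Target genes of p53 mostly did not pass, with 1 that rose and 2 that fell of 22. Cdkn1a, the p53-induced cell cycle inhibitor p21, was at 317, 251 and 389 CPM against 331, 263 and 312 CPM (log2 fold change -0.08, adjusted p = 0.75).

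Cell cycle genes fell. Of 30 mitosis genes 27 fell and 0 rose, with a median of -1.05, and of 36 replication genes 33 fell and 0 rose, with a median of -0.84. With all 12 libraries in the fit, 12 and 19 fell. Cdk1, the mitotic kinase, went from 125, 113 and 108 CPM to 53, 36.5 and 56.7 CPM (log2 fold change -1.25, SE 0.16, adjusted p = 0.0011). Plk1 fell from 47.4, 47.7 and 41.7 CPM to 21.3, 17.4 and 23.1 CPM (log2 fold change -1.15, SE 0.12). Cdc20, an activator of the anaphase-promoting complex, fell by 0.99 (SE 0.14, adjusted p = 0.0013; 0.061 in the fit of 12 libraries). In replication, Rrm2, a ribonucleotide reductase subunit, went from 149, 163 and 130 CPM to 56.9, 31.8 and 66.5 CPM (log2 fold change -1.51, SE 0.28). Mcm2, of the replicative helicase, fell by 1.04 (SE 0.12) and the cyclin gene Ccne2 by 1.5 (SE 0.25, adjusted p = 0.0032; 0.056 in the fit of 12 libraries). TDB 2 was the lowest treated library for 30 of 30 mitosis and 36 of 36 replication genes. Among vehicle libraries, vehicle 3 was lowest for 21 and 26 of them. Without any 1 library, 26 to 30 mitosis genes and 30 to 34 replication genes fell.

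The promoters of 3 mitosis genes, from the same RefSeq table and window, are printed because factors of the DREAM complex and NF-Y are known to bind such words at cell cycle genes. Capitals mark the CHR word TTTGAA and the CCAAT word, on either strand. The windows are chr7:122159185-122159484 (+) for Plk1, chr4:118437294-118437593 (-) for Cdc20 and chr10:69352863-69353162 (-) for Cdk1.
Plk1: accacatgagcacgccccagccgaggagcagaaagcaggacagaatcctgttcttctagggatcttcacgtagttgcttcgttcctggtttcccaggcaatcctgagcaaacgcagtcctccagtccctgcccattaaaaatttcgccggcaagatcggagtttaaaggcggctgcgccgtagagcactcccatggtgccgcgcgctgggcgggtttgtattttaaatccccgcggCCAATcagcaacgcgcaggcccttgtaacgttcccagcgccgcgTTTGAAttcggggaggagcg
Cdc20: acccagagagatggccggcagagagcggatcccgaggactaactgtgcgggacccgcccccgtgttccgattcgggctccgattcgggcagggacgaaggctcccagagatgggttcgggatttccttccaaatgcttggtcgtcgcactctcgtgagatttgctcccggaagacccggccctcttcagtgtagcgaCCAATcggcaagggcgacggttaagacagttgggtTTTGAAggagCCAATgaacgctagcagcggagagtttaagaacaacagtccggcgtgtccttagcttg
Cdk1: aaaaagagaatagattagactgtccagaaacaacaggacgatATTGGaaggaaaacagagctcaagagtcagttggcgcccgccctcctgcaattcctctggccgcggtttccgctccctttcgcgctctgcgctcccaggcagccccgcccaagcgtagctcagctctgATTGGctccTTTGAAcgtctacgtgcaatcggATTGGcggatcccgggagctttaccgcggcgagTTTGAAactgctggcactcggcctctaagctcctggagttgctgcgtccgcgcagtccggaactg
Plk1 holds CCAAT at -14 to -10 and CHR at 31 to 36, counted in the same way. Cdc20 holds CHR at -18 to -13 between CCAAT words at -53 to -49 and -8 to -4. Cdk1 holds CHR at -71 to -66 and at -15 to -10, with 3 CCAAT words on the other strand. Of 24 mitosis genes with a promoter, 66.7% held both words, against 7.12% of all RefSeq promoters, 4.93% of the genes tested and 13.5% of the 304 genes that fell at least 2-fold. Of 29 replication genes, 34.5% held an E2F word, TTTGGCGC or TTTCCCGC, against 1.63% of all RefSeq promoters, 2.97% of the genes tested and 2.63% of the genes that fell at least 2-fold.

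Other cell cycle regulators were looked up after these values were seen. Ccnd1, the D-type cyclin downstream of growth factor receptors (chr7:144929931-144939925), went from 835, 846 and 982 CPM to 413, 249 and 401 CPM (log2 fold change -1.33, SE 0.19, adjusted p = 0.0022). Again TDB 2 was lowest, and the groups did not overlap. Rb1 rose by 0.53 (SE 0.12, adjusted p = 0.011). The calls of Ccnd1 and Rb1 were not checked under the alternatives, the fit of 12 libraries included. Ccnd2, Ccnd3, Cdkn1b and Cdkn2a did not pass, with adjusted p of 0.096, 0.089, 0.099 and 1.

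**Figure D4:**
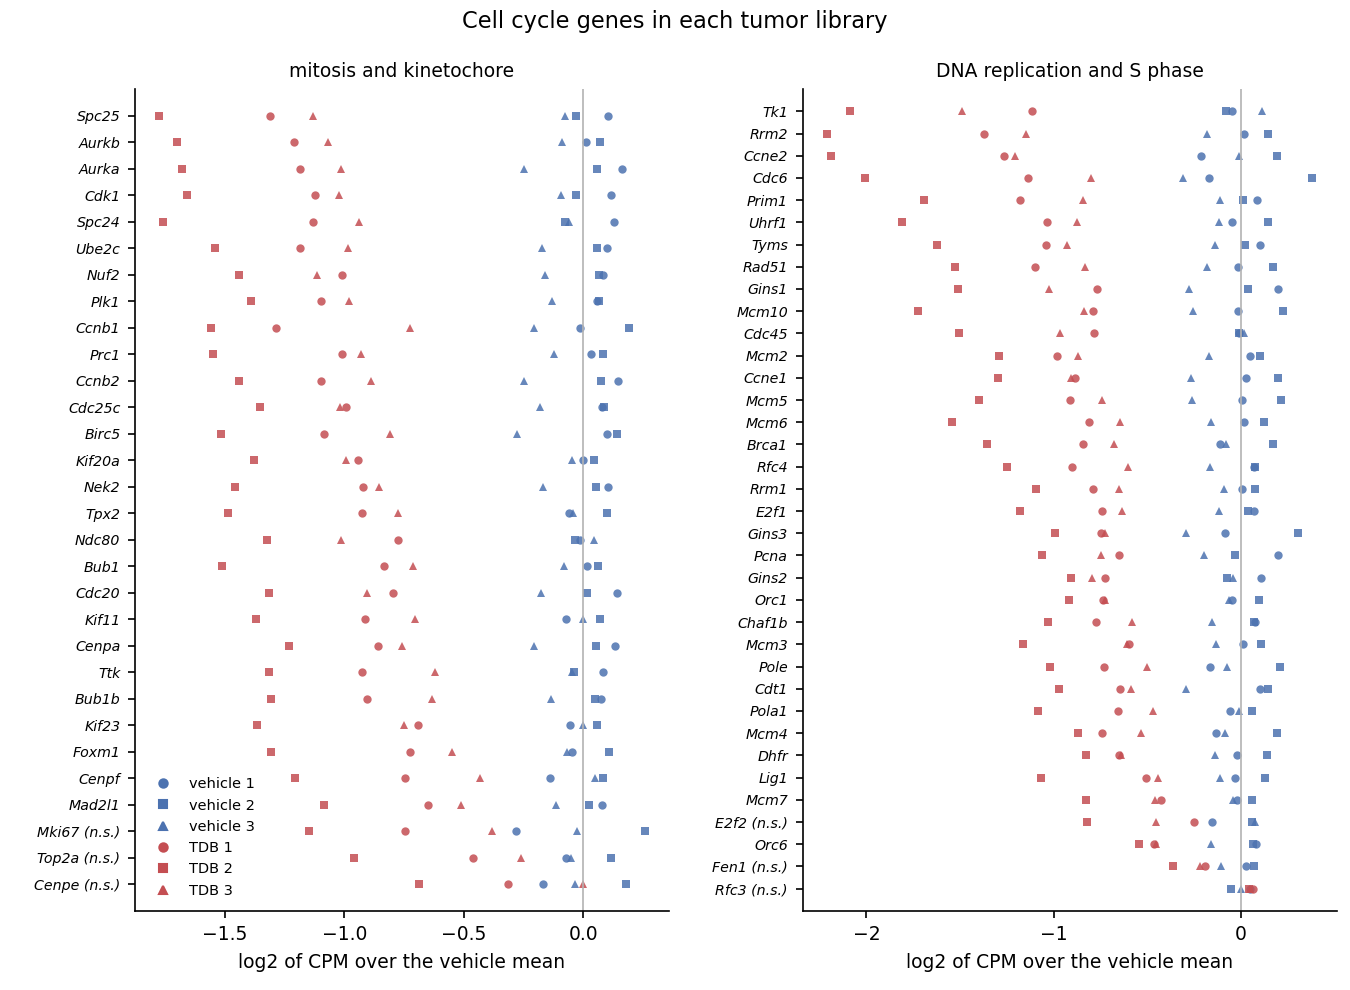
Level of 30 mitosis and 36 replication genes in each tumor library, as log2 of CPM over the mean of the 3 vehicle libraries. Marker shapes give the library, blue is vehicle and red is TDB, and n.s. marks genes that did not pass. TDB 2 is the lowest treated library for every gene drawn, 30 and 36, and blue and red points are apart for most.

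Erbb2, the target's mouse gene (chr11:98412470-98437716), was lower with TDB. It went from 543, 545 and 516 CPM to 363, 337 and 375 CPM (log2 fold change -0.58, SE 0.08, adjusted p = 0.00062), but did not pass with all 12 libraries in the fit (0.1). The annotation used holds no human HER2 transgene, and whether reads of the transgene were counted to the mouse gene was not tested. Its partner Erbb3 did not pass, at 350, 306 and 375 CPM against 358, 358 and 367 CPM (adjusted p = 0.58). Mien1, the neighbour of Erbb2 on the chromosome, fell by 0.34 on the log2 scale (adjusted p = 0.0065; 0.57 in the fit of 12 libraries). Of 18 HER receptor, ligand and amplicon neighbour genes tested, 2 rose and 4 fell, and in the fit of 12 libraries 0 rose and 0 fell. Over all genes tested 15.8% rose and 13.1% fell, which limits what the counts of this list show.

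Markers of mammary tumor epithelium mostly did not pass, with 2 that rose and 1 that fell of 14 tested. Epcam, an epithelial adhesion gene, stood at 1330, 1200 and 1090 CPM in vehicle and 1300, 1230 and 1090 CPM in treated tumors (adjusted p = 0.99). Csn3, kappa-casein, which shows the mammary origin, stood at 20500, 17300 and 21400 CPM against 22300, 21400 and 21800 CPM. Elf3, an epithelial transcription factor, rose by 1.72 (SE 0.14). Basal markers Krt5 and Krt14 were too low to test. Pigr, which carries polymeric immunoglobulin across epithelia (chr1:130826684-130852249), went from 10.3, 7.99 and 7.68 CPM to 894, 1230 and 534 CPM (log2 fold change 6.68, SE 0.4, adjusted p = 0.00013). All 3 treated tumors lay far above the vehicle range. Of 19 genes of milk and secretory differentiation 9 rose and 0 fell, with a median of 0.56, but 5 rose without TDB 2 and 4 in the fit of 12 libraries. Xdh, needed for milk fat secretion, rose by 1.61 (SE 0.11). Csn2, beta-casein, went from 721, 332 and 413 CPM to 891, 1330 and 1840 CPM (adjusted p = 0.039), a call lost without TDB 2 (0.13), TDB 3 (0.11), vehicle 2 (0.076) or vehicle 3 (0.11), without the filter on low counts (0.12) and with the replicate block (0.088).

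Vessel genes split. Pan-endothelial markers fell in 4 of 18 and rose in 0, with a median of -0.32 and summed levels of 285 to 455 CPM in vehicle and 248 to 397 CPM in treated tumors. Pecam1 was at 52.8, 36 and 60.7 CPM against 47.9, 56.5 and 62.1 CPM and did not pass (adjusted p = 0.6). Kdr, the main VEGF receptor gene, fell from 23, 24.3 and 31.5 CPM to 13.1, 11.6 and 16.3 CPM (log2 fold change -0.94, SE 0.16, adjusted p = 0.0028; 0.13 in the fit of 12 libraries). Of 12 tested adhesion genes of endothelium, by which leukocytes leave vessels, 3 rose, 2 fell and 7 did not pass, with a median of 0.15. Icam1 went from 3.71, 2.57 and 4.76 CPM to 50.4, 48.1 and 56.3 CPM (log2 fold change 3.81, SE 0.19), Vcam1 rose by 1.54 (SE 0.17) and Selp by 4.83 (SE 0.45). The junction genes Jam2 and Esam fell, by 0.97 (SE 0.12) and 0.65 (SE 0.14) on the log2 scale. Of 24 angiogenic genes 5 fell and 1 rose, with 8 that fell without TDB 3 and 9 by DESeq2. Over all genes tested 13.1% fell and 15.8% rose, which limits what the counts of these short endothelial, adhesion and angiogenic lists show. Pgf, placental growth factor, went from 272, 255 and 255 CPM to 93.3, 63.3 and 106 CPM (log2 fold change -1.58, SE 0.18). Vegfa was at 232, 241 and 357 CPM against 246, 234 and 323 CPM and did not pass. Esm1, a tip cell gene, had 15.3, 21.2 and 37.5 CPM against 7.02, 10.3 and 14 CPM (adjusted p = 0.07; 0.03 in the fit of 12 libraries, 0.036 by DESeq2, 0.038 by limma-voom, 0.04 without vehicle 1 and 0.00055 with the replicate block). Of 13 Notch, Wnt and Hippo targets tested, 6 fell and 1 rose. Hey1 fell from 264, 273 and 274 CPM to 105, 98.1 and 156 CPM (log2 fold change -1.17, SE 0.17), Nrarp by 1.59 (SE 0.18) and Hes1 by 1.1 (SE 0.17). The pericyte gene Rgs5 fell from 83.4, 94.9 and 102 CPM to 31.3, 35.1 and 46.1 CPM (log2 fold change -1.32, SE 0.15). In bulk RNA, which cells made these transcripts, those of Icam1, Pgf, Hey1, Hes1 and Nrarp included, was not tested.

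Stromal genes varied between mice of a group. Of 30 extracellular matrix genes 1 rose and 0 fell, and vehicle 3 was the highest vehicle library for all 30 and vehicle 2 the lowest for 27. Among treated libraries TDB 3 was the highest for 29 and TDB 1 the lowest for 28. Col1a1 had 328, 233 and 701 CPM in vehicle and 247, 311 and 609 CPM in treated tumors (log2 fold change -0.11, SE 0.55). Timp3, an inhibitor of matrix proteases, was the gene that rose, from 31.6, 32.7 and 46.8 CPM to 106, 159 and 177 CPM (log2 fold change 1.99, SE 0.24). Several metabolic lists showed few calls. By edgeR 0 of 23 oxidative phosphorylation genes passed, with 0 higher and 5 lower at an unadjusted p under 0.05 and 0 calls by DESeq2. Ribosome biogenesis genes rose in 4 of 28 and glycolysis genes in 2 of 23, and in the fit of 12 libraries 0 and 1 rose. Of all genes tested 15.8% rose and 13.1% fell, and the ribosome count is near that share of rises. Ldha, of glycolysis, was lower (log2 fold change -0.49, adjusted p = 0.0082; 0.12 in the fit of 12 libraries). Cholesterol synthesis and uptake genes fell in 9 of 24 and rose in 2, but 1 fell in the fit of 12 libraries. Gapdh and Pgam1 of glycolysis and Fdps of cholesterol synthesis, genes with near-identical copies in the genome, held few counts (8, 113 and 142 in vehicle and 12, 101 and 101 in treated tumors), and whether reads shared with copies were dropped was not tested. Ch25h, which makes 25-hydroxycholesterol, rose from 3.3, 1.63 and 4.72 CPM to 26.4, 38.2 and 30.4 CPM (log2 fold change 3.3, SE 0.35).

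Among all protein-coding genes with at least 5 CPM in each library of the higher group, the first 10 by fitted rise were Ubd, Ly6i, Gm4841, Pdcd1lg2, Gbp6, Gbp10, Tgtp1, Gbp4, Ifng and F830016B08Rik. This order depends on the prior count, since Ubd, Ly6i, Pdcd1lg2, Gbp6 and Ifng had no vehicle count. Ubd, the ubiquitin-like modifier FAT10, had 37.8, 56.9 and 30.8 CPM with TDB, at least 964-fold more, and the bounds of the other 4 were 173-fold to 367-fold. Genes with counts in both groups had fitted folds above these bounds, among them Gbp10 (1970-fold), Tgtp1 (1730-fold), Gbp4 (1560-fold) and, just outside the first 10, Gbp8 (1340-fold) and Cxcl9 (1110-fold). Gm4841 had 3 vehicle and 8928 treated counts, a ratio of 2850 (95% exact counting interval 975 to 13800). The leading fall was Ednrb, the endothelin receptor B gene, from 18.5, 12.2 and 18.7 CPM to 0.754, 1.94 and 3.08 CPM (log2 fold change -3.1, SE 0.43, adjusted p = 0.0024). Has3, a hyaluronan synthase gene, fell from 7.79, 6.68 and 6.84 CPM to 0.566, 0.753 and 1.56 CPM (log2 fold change -2.9, SE 0.32). The imprinted gene Mest fell by 2.78 (SE 0.22). Ptn, pleiotrophin, fell by 2.52 (SE 0.28) and Cntfr by 2.5 (SE 0.38). Ism2 fell by 2.47 (adjusted p = 0.015), a call lost without TDB 2 (0.063) and without the filter on low counts (0.074). Cd300lg, Ptgfr and Aspn fell by 2.24, 2.22 and 2.17.

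The response in tumor was set against that in liver by an interaction test over 12 libraries, whose values are scaled over all 12. The design text gives tumor and liver from the same mice, but no label says which liver goes with which tumor, so the test treats the libraries as independent. The effect was higher in tumor for 303 of 16557 genes (1.83%) and lower for 109 (0.658%). With the library number as a replicate block the counts were 216 and 42, and 60.4% of the 412 calls were made again. The median difference over all genes was -0.12 on the log2 scale, and values below are read against it. Of the GTPases 16 of 17 had a higher effect in tumor, with a median difference of 3.22, and 0 a lower one (14 and 0 with the block). For Igtp the log2 fold change was 7.5 in tumor and 4.24 in liver, a difference of 3.22 (SE 0.29, adjusted p = 0.00011). The livers started higher, at 107 ± 13.7 CPM (SD, n = 3) in vehicle against 12.9 ± 2.23 CPM in vehicle tumors, and reached 1960 ± 211 CPM against 2210 ± 214 CPM. Of type I targets 6 of 29 differed and of MHC class I genes 13 of 21, and 0 of either list was lower. With the block these were 5 and 10. They were 3 and 7 without tumor TDB 1 or 2, and 12 and 17 without liver TDB 3. Pigr, at 1900 ± 601 CPM in vehicle livers and 2130 ± 712 CPM in treated livers, had an effect 6.44 higher in tumor (SE 0.54). Of 36 replication genes 8 had a lower effect in tumor and 0 a higher one (7 and 0 with the block, 16 and 0 without liver vehicle 2). Mcm5 was 27.4 ± 3.54 CPM in treated against 12 ± 4.53 CPM in vehicle livers and 25.7 ± 5.57 against 54.2 ± 8.88 CPM in tumors, a difference of -2.28 (SE 0.37, adjusted p = 0.0066). Of 30 mitosis genes 1 differed, and 0 with the block.

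**Figure D5:**
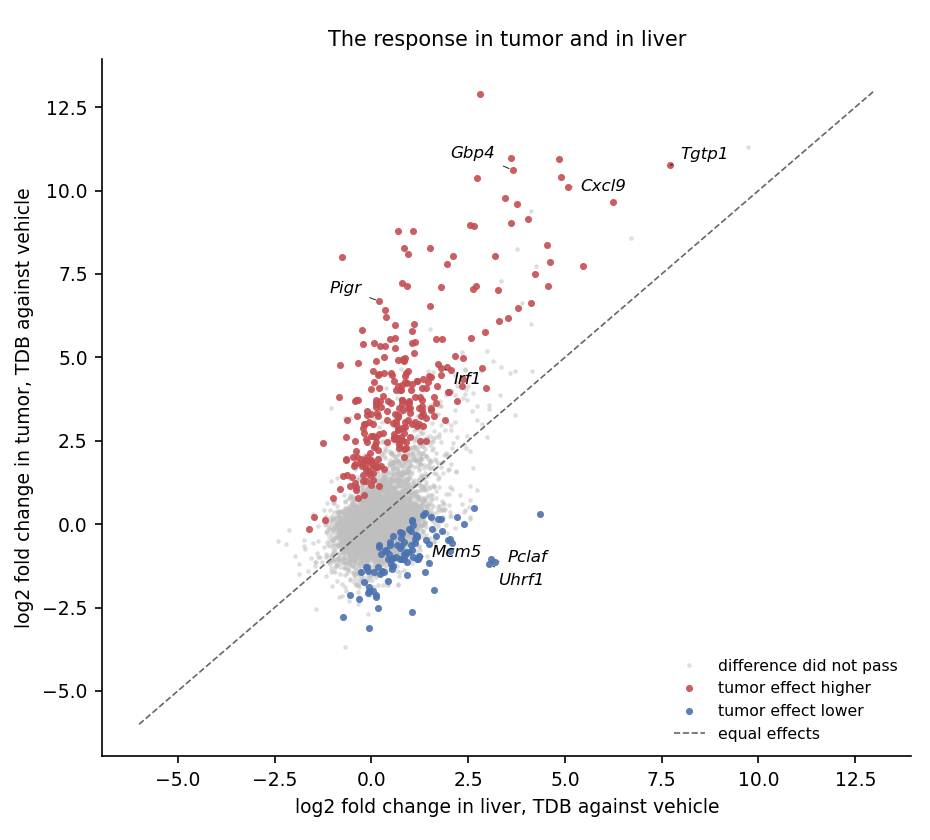
Log2 fold change of TDB against vehicle in liver (x) and in tumor (y) for 12608 genes tested in both; the dashed line marks equal effects. Red points (271) have a higher and blue points (96) a lower effect in tumor by the interaction test. Gbp4, Cxcl9 and Pigr lie above the line, and Uhrf1, Pclaf and Mcm5 below it.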

How the data were processed

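The deposited table holds whole-number counts per gene, which the authors did not normalize, with 1 column per library and 52636 Ensembl identifiers. GSNAP, limma and GRCm38 are named without role or version per the submitters' processing notes. No source used here names the counter, the annotation release, the strand setting or how reads that match several places were counted, so levels of near-identical copies are uncertain, and reads of overlapping and antisense genes cannot be told apart. A second deposited table, of FPKM, was not used. Symbols came from GENCODE M21, which matched 52489 identifiers. Counts were filtered (edgeR filterByExpr, minimum 10 in a library and 15 in all), scaled by TMM and tested with the quasi-likelihood test of edgeR 4.0.16 (R 4.3.3) within the 6 tumor libraries. The difference from liver used an interaction contrast over 12 libraries. DESeq2 1.42.0, limma 3.58.1 (voom), other scaling factors, no filter, a replicate block, a fit over 12 libraries and leaving out each library were the alternatives. The test was checked on simulated counts.

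The text names genes by a rule. It takes the genes picked in each list for their roles, then up to 4 more members per list with the largest change that passed without overlap, the 10 largest rises and falls over all genes, the 5 largest differences from liver in each direction, and members that went against their list. Outside it, Gapdh, Pgam1, Fdps, Hspa8, Krt5 and Krt14 are named for their low counts. Other genes outside it are said to be chosen after their values were seen. 1 gene of the lists, and a promoter word tied to it, is not reported here, though the gene stays in the counts of its list. The members and lists were chosen with earlier results of these data known. The gene lists, cell type markers included, hold 849 entries, of which 846 matched 1 identifier. Promoters of RefSeq (GRCm38.p6) were matched by symbol, for 10837 of the genes tested. Labels number libraries 1 to 3, and these numbers were not taken to pair mice, since no label says so.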

Additional observations from a re-analysis of the deposited data

Results flagged for a closer look

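For 10 genes the effect of the antibody differed most between tumor and liver by edgeR's interaction test, 5 in each direction, among protein-coding genes that passed and had at least 5 CPM in each library of 1 group. Ubd had an effect 9.56 higher in tumor on the log2 scale (SE 1.53, adjusted p = 0.0093) and Ly6i 8.17 higher (SE 1.28, adjusted p = 0.0086; 0.067 with a replicate block). Both had no count in vehicle tumors, so the size depends on the prior count. Gm4951 was 7.69 higher (SE 0.6, adjusted p = 7.3e-05), from 106 ± 20.7 CPM (SD, n = 3) in vehicle and 214 ± 112 CPM in treated livers against 0.242 ± 0.14 and 103 ± 20.8 CPM in tumors. Gbp8 was 7.6 higher (SE 0.55) and Gbp4 6.91 higher (SE 0.5), each with an adjusted p of 4.8e-05 and each with a rise in liver as well, of 2.74 and 3.66.

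The effect on Col9a3, a cartilage collagen gene, differed by -5.72 (SE 0.98, adjusted p = 0.028), with no count in vehicle livers and 0.147 CPM in treated livers. Its size thus depends on the prior count, and in tumor Col9a3 fell by only 0.75 on the log2 scale. Pclaf, a PCNA-binding factor, differed by -4.38 and Uhrf1, which maintains DNA methylation, by -4.3 (both SE 0.5 and adjusted p = 0.00073). Each was lower in treated than vehicle tumors and higher in treated than vehicle livers. Pclaf was 6.97 ± 1.65 against 16.1 ± 0.255 CPM in tumors and 4.28 ± 1.23 against 0.483 ± 0.311 CPM in livers. Ccn5 differed by -4.2 (SE 0.92, adjusted p = 0.031; 0.11 with a replicate block). Egr2, an early response gene, differed by -4.17 (SE 0.84, adjusted p = 0.02), with 13.5 ± 2 CPM in treated and 11.7 ± 1.97 CPM in vehicle tumors and 1.26 ± 0.673 against 0.0514 ± 0.0891 CPM in livers. The size of the Egr2 difference rests on a very low level in vehicle livers. Within tumor, Egr2 (log2 fold change 0.29, adjusted p = 0.18) and Ccn5 (-1.04, adjusted p = 0.16) did not pass. Ccn5 passed by limma-voom (0.041) and without TDB 3 (0.007). The adjusted p of Col9a3 rose to 0.071 without liver TDB 3 and to 0.1, 0.083 and 0.094 without liver vehicle 1, 2 and 3, and to 0.097 with a replicate block. That of Egr2 rose to 0.076 and 0.065 without liver vehicle 1 and 2 and to 0.052 and 0.055 without tumor TDB 1 and 2. That of Ccn5 rose to 0.086 without liver TDB 2, to 0.074, 0.081 and 0.091 without liver vehicle 1, 2 and 3, to 0.07 and 0.082 without tumor TDB 1 and 2, and to 0.07 and 0.065 without tumor vehicle 1 and 3.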

How the results depend on the processing

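Of 254 named genes that passed in tumor, 184 passed under every alternative and 222 under every one but the fit of 12 libraries, and 0 reversed. Many were named because they passed with large changes and no overlap, so these numbers do not stand for all genes called. Of all 4456 calls, the fit of 12 libraries made 36.7% again, DESeq2 95.1%, and fits without 1 library 65.1% to 90.1%. The fit of 12 libraries called 1068 genes higher and 627 lower. Leaving out 1 library gave 1797 to 2717 higher and 1145 to 2143 lower, the lowest both without TDB 2. For the difference from liver, 303 higher and 109 lower became 582 and 315 by DESeq2, 42 lower with the replicate block, and 196 to 525 higher and 45 to 177 lower without 1 library, both lowest without tumor TDB 2 and the highest without liver TDB 3 for higher and liver TDB 1 for lower. Deviations from the group mean correlated at 0.0626, 0.0185 and 0.264 for tumors of the same number, and at -0.245 to 0.202 for other pairs. With 3 libraries per group the deviations sum to 0 in each group, so these values cannot decide whether the numbers mark something shared. Vehicle 3 and TDB 3 were the highest of their groups for 30 and 29 of 30 matrix genes. With the replicate block 2525 genes rose and 2097 fell in tumor, and 216 had a higher effect there than in liver. Many T cell, NK and dendritic cell transcripts held few counts, which limits the view of small changes in them, though no detection limit was worked out. The causes were not tested.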

Other observations

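Other lists showed mixed directions. In the unfolded protein response, 7 of 22 rose and 2 fell, but 1 rose with all 12 libraries in the fit. Atf3, a stress factor, rose from 22.6, 23.1 and 24.4 CPM to 56.9, 67.2 and 60.3 CPM (log2 fold change 1.4, SE 0.09). Chac1, which degrades glutathione, fell from 4.08, 4.47 and 3.66 CPM to 1.65, 1.65 and 2.05 CPM (log2 fold change -1.19, SE 0.2, adjusted p = 0.0024; 0.082 in the fit of 12 libraries). Clotting genes rose in 3 of 16 and fell in 4. The shares over all genes tested, 15.8% that rose and 13.1% that fell, limit what the counts of both lists show. Procr, the protein C receptor, rose by 1.57 (SE 0.21), and Thbd, thrombomodulin, fell by 1.72 (SE 0.43, adjusted p = 0.02), a call lost without TDB 1 (0.059), TDB 2 (0.085) or vehicle 1 (0.061).

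Low levels of genes known from hepatocytes were counted in tumor libraries, and their source was not tested. Hepatocyte markers summed to 12.1 to 52.7 CPM in vehicle and 7.71 to 21 CPM in treated tumors, with Alb at 8.52, 31.5 and 0.0441 CPM against 4.81, 2.58 and 0.782 CPM. By edgeR 0 of 3 tested passed, 0 at an unadjusted p under 0.05 and 0 by DESeq2. Hspa8, a heat shock gene with near-identical copies, held only 151 vehicle and 156 treated counts, and whether shared reads were dropped was not tested.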
